A study of Apis mellifera with 9 samples.

Results

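The comparison described here is the step from the lower to the higher quercetin dose in the food of honey bee (Apis mellifera) larvae, 0.1 mM against 0.25 mM. Its members are the 6 RNA-seq libraries of these diets, 3 per dose, chosen by their diet label from 9 libraries in all, and the other 3 are from larvae without quercetin. Newly hatched larvae from the research colonies of a university bee facility were moved into culture plates, 10 to 12 per diet and replication, and ate for 3 days. Every diet was equal parts royal jelly and a watery solution of 12% glucose, 12% fructose and 2% yeast extract, and the diets differed only in quercetin. No strain, colony or genotype is given for the larvae. The labels call the source whole larvae, while the extraction text speaks of midguts. The features of the table carry no gene names, so markers of gut, fat body or other tissues could not be used to check either statement. In either tissue, more cells of a type and more RNA per cell cannot be told apart.

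Quercetin is a flavonol of plants that reaches bees through pollen, nectar and honey. Royal jelly, made by the glands of nurse workers, is the food of the youngest larvae, and pollen and honey enter the food of worker larvae later. Insects generally clear such plant compounds with cytochrome P450 enzymes and with enzymes that attach sugars or glutathione, and the larval midgut and fat body are tissues where this takes place. The dose step asks what 0.25 mM does to the transcripts of a larva beyond what 0.1 mM does. The count table names 15314 features by GB identifiers only. The reference gene list held 0 of these identifiers, so no role can be given to any gene described below.

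The 3 columns of the 0.25 mM diet share a single heading and are called libraries a, b and c in table order, as names only. Library a stood apart from b and c over the genes as a whole. The cause was not tested, and the main results are given for each of the 3 libraries and with and without library a. Reads counted on features numbered 35804851 to 41090037 in the 0.1 mM libraries. They numbered 42874091 in library a, 40924050 in b and 39047388 in c, so library a was also the deepest. The 3 columns held different counts, whose chi-square divided by its degrees of freedom was 109.2 for a and b, 77.3 for a and c and 21.4 for b and c, where counting noise alone gives values near 1. At least 1 read fell on 13029 to 13166 features at 0.1 mM and on 13095, 13082 and 13026 features in libraries a, b and c.

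The distance of each high-dose library from the low dose was measured first, as the median absolute log2 difference in CPM (read counts scaled to library size) over the 11426 genes with enough reads to test. Between 0.1 mM replicates this distance was 0.104 for replicates 1 and 2, 0.134 for 1 and 3 and 0.0979 for 2 and 3. Library a lay 0.125, 0.109 and 0.117 from these replicates, within the range that the replicates showed among themselves. Library b lay 0.345, 0.304 and 0.287 from them, and library c 0.31, 0.283 and 0.264. Libraries b and c were 0.104 apart, as close as replicates of the low dose. Library a was 0.284 from b and 0.252 from c, so that by this measure it was nearer to every library of the lower dose than to either library of its own.

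**Figure D1:**
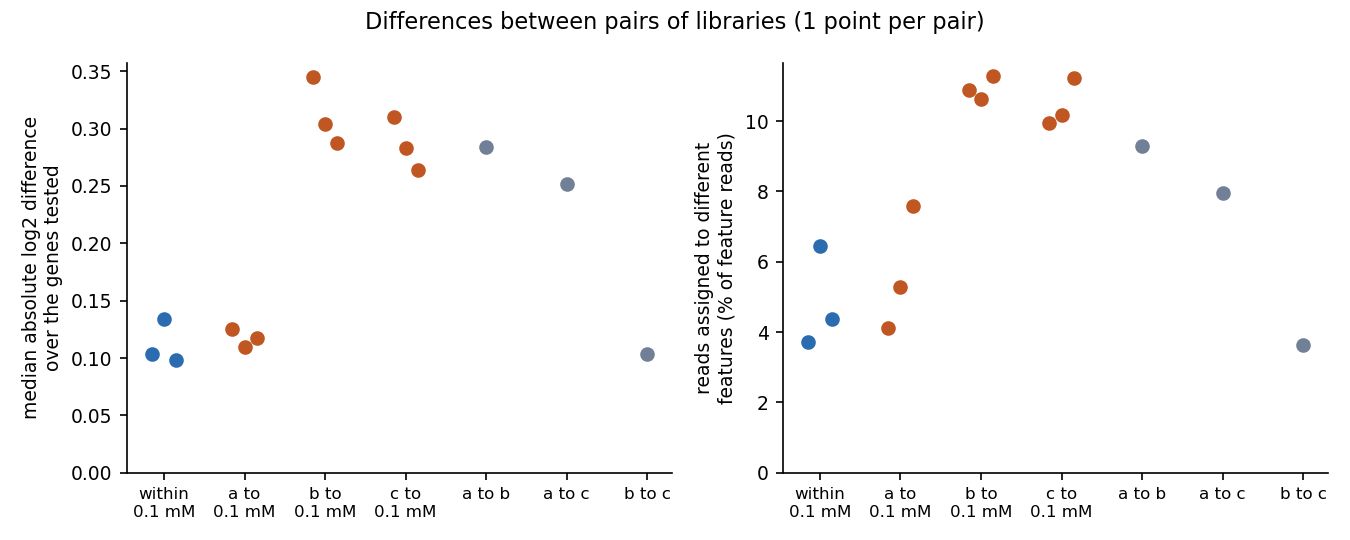
Distances between the 6 libraries, 1 point per pair: on the left the median absolute log2 difference in CPM over the genes tested, on the right the share of feature reads that would have to move to other features to make a pair alike. Library a lies 0.109 to 0.125 from the 0.1 mM libraries on the left axis, whereas b and c lie 0.264 to 0.345 from them.

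Weighted by abundance, library a lay beyond the range of the low-dose replicates in its pair with replicate 3 only. The share of feature reads that would have to move between features to make 2 libraries alike was 3.71% to 6.45% between 0.1 mM replicates. For library a it was 4.13%, 5.28% and 7.59% against replicates 1, 2 and 3, the last of which is above that range. For b it was 10.9%, 10.6% and 11.3%, and for c 9.96%, 10.2% and 11.2%. The share was 9.3% between a and b, 7.96% between a and c and 3.63% between b and c. By this measure too, library a was nearer to every library of the lower dose than to b or c. Only its place relative to the range of the low-dose replicates differed between the 2 measures, through replicate 3.

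By number of genes past a fold limit, library a differed little from the 0.1 mM mean and b and c differed more. Relative to the mean of the 0.1 mM libraries, 58 genes were at least 2-fold higher and 40 at least 2-fold lower in library a, together 0.858% of genes. Library b had 225 higher and 405 lower, or 5.51%, and library c 168 higher and 342 lower, or 4.46%. At a limit of 1.5-fold, library a had 230 genes higher and 191 lower, library b 1172 and 1324, and library c 919 and 1136. In b and c the genes at least 2-fold lower outnumbered those at least 2-fold higher, which was not the case in a. Few of the genes past 2-fold were common to the 3 libraries. Among the higher ones 9 were common to a, b and c and 76 to b and c alone, and among the lower ones 2 and 239. A further 29 genes were past 2-fold higher and 28 past 2-fold lower in library a alone. Each of these counts sets a single library against the same 0.1 mM mean, so they share the low-dose libraries and carry no test. Between pairs of single libraries, 151 to 188 genes were at least 2-fold apart within 0.1 mM. Against single 0.1 mM replicates these numbers were 159 to 187 for library a, 613 to 956 for b and 510 to 762 for c.

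**Figure D2:**
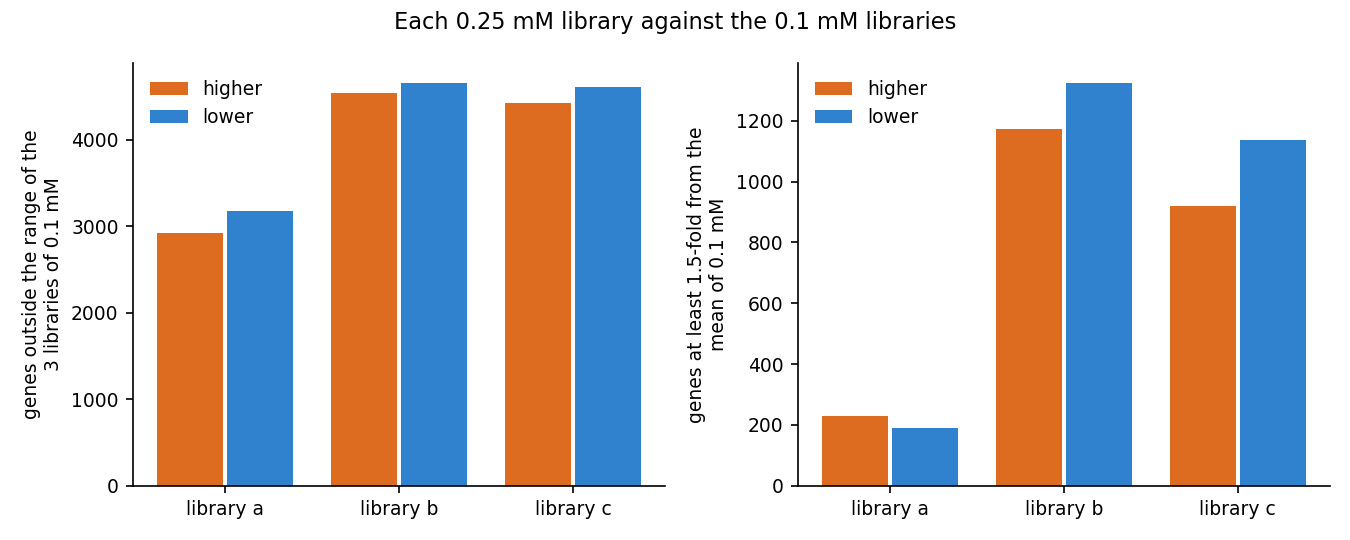
Number of genes in each 0.25 mM library that lie outside the range of the 3 libraries of 0.1 mM (left) or at least 1.5-fold from their mean (right), higher in orange and lower in blue. Library a has 230 and 191 genes at 1.5-fold, against 1172 and 1324 in b and 919 and 1136 in c.

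Outside the range of the 3 low-dose libraries, in either direction, lay 53.3% of genes in library a, 80.5% in b and 79% in c. A range of 3 libraries is narrow, and many genes of any other library would fall outside it without a difference between the doses. These shares are therefore read only between a, b and c and do not count genes that changed. Library a was above the highest 0.1 mM library in 2916 genes and below the lowest in 3170. For library b these numbers were 4543 and 4654, and for c 4419 and 4608.

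No gene passed the test of the dose step in the 6 libraries. Called were 0 of 11426 genes, or 0% (edgeR's quasi-likelihood test with p adjusted by Benjamini-Hochberg, threshold 0.05), and the smallest adjusted p, 0.171, was shared by 1978 genes. Before adjustment, 3081 genes had a p under 0.05, which is 27% of those tested, of which 1510 were higher at 0.25 mM and 1571 lower. Other tests of the same 6 libraries gave other numbers. The likelihood ratio test of edgeR called 352 genes, or 3.08%, with 231 higher and 121 lower. DESeq2 called 649 of the 10092 genes to which it gave an adjusted p, or 6.43%, with 399 higher and 250 lower, while limma-voom called 0. A dose difference of 2-fold or more lay outside the 95% interval of 9521 genes, 83.3% of those tested, and one of 1.5-fold outside that of 6096 genes. For the remaining genes a difference of that size was not excluded by these libraries.

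The absence of calls depended on library a. Without it, 2352 genes were called higher at 0.25 mM, 20.6% of the genes tested, and 2879 lower, 25.2% (edgeR quasi-likelihood test, smallest adjusted p = 3.18e-04). Without library b or without library c, as without any of the 3 libraries of 0.1 mM, 0 genes were called, and the smallest adjusted p ran from 0.286 to 0.453. The number of genes with an unadjusted p under 0.05 was 6155 without a, 1247 without b and 1097 without c. It was 1388, 1498 and 1925 without 0.1 mM replicate 1, 2 and 3. A limma-voom fit that weights each library by how well it follows its group called 5992 genes, 52.4%, of which 2790 were higher and 3202 lower. It gave library a a weight of 0.139, against 1.01 for b and 2.55 for c and 0.986, 2.66 and 1.07 for the 0.1 mM replicates. Without library a, the spread between replicates estimated in the edgeR fit fell from 14.6% to 10.1%. Library a stood out in these same data, so p-values without it, or with it weighted down, can be too small. The counts of calls from both fits are therefore a description of how the test depends on library a.

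**Figure D3:**
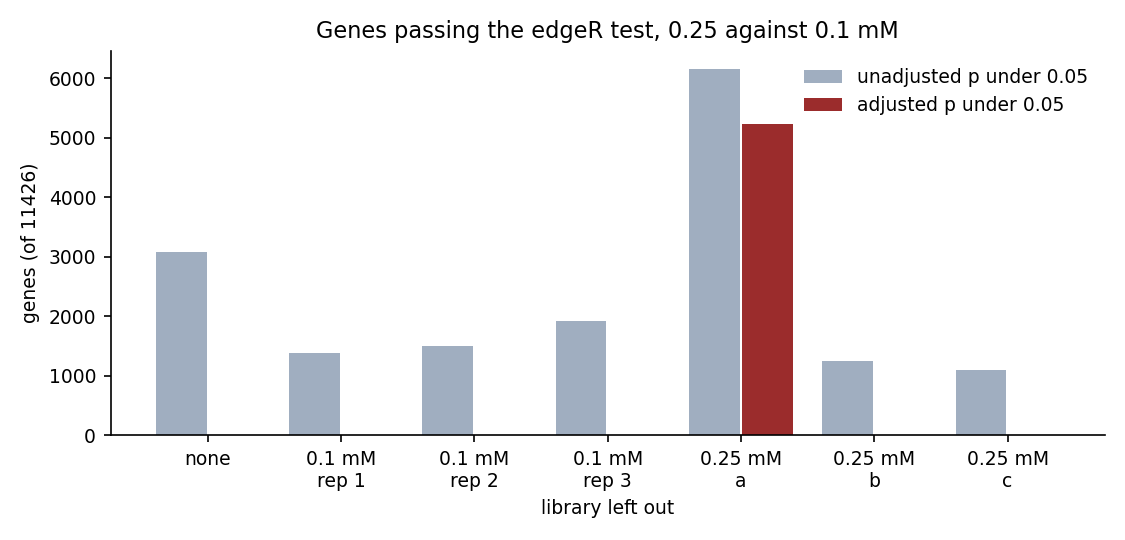
Number of genes with an unadjusted (grey) and a Benjamini-Hochberg adjusted (red) p under 0.05 in edgeR's quasi-likelihood test of 0.25 against 0.1 mM, with all 6 libraries (none) and with each library left out in turn. An adjusted p under 0.05 appears only without library a, in 5231 genes.

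The spread between replicates was larger at the higher dose, and library a carried the excess. The biological coefficient of variation, edgeR's estimate of the spread between replicates beyond counting error, was 10.5% at 0.1 mM and 17.7% at 0.25 mM. It was 9.3% between b and c, 19.3% between a and c and 21.2% between a and b. Leaving out a replicate of the low dose gave 9.09% to 11.2%. The SD of log2 CPM was larger at 0.25 mM than at 0.1 mM in 8296 genes, 72.6% of those tested.

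Genes called without library a moved by small factors in b and c. The median fitted change was 1.38-fold for the 2352 higher genes and 1.38-fold for the 2879 lower genes, with at least 2-fold changes in 151 and 335 and at least 4-fold in 2 and 16. The higher genes held 27.9% of feature reads on average at 0.1 mM, 28.9% in library a, 35.7% in b and 34.9% in c. The lower genes held 27% at 0.1 mM, 25% in library a, 19% in b and 19.4% in c. The calls rest on b and c, whose values are therefore given only as a description, and library a is compared with the same 0.1 mM libraries. In the higher genes the median log2 difference from the 0.1 mM mean was 0.07 in library a, 0.47 in b and 0.43 in c. In the lower genes it was -0.07 in a, -0.49 in b and -0.44 in c. Library a lay above all 0.1 mM libraries in 1078 of the higher genes, within their range in 1018 and below all of them in 256. In the lower genes it lay below all of them in 1462, within their range in 1123 and above all in 294. Over all 11426 genes tested, library a lay above all 0.1 mM libraries in 2916, within their range in 5340 and below in 3170. The calls used the same 0.1 mM libraries, so the place of library a relative to them is partly set by the choice. By abundance, 26.7% of the most abundant tertile of genes were called higher and 29.9% lower, against 20.9% and 33.6% in the middle tertile and 14.2% and 12.1% in the least abundant.

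In 1564 genes, 13.7% of those tested, each of a, b and c lay above all 3 libraries of 0.1 mM, and in 1849 genes, 16.2%, each lay below them. These genes are chosen by their values and are described without a test. Some genes separate in this way without a dose difference, so the counts are not numbers of genes that changed. More genes lay lower than higher with the scaling used, and the order turned with upper-quartile scaling, where 1719 lay higher and 1700 lower. The differences were small. The median fitted difference was 1.29-fold in the higher and 1.25-fold in the lower genes, with at least 2-fold differences in 46 and 64 and 4-fold in 0 genes of either. Library a was the one nearest to the 0.1 mM level in 1181 of the higher genes, 75.5%, and in 1567 of the lower genes, 84.7%. Library b was nearest in 185 and 140 and library c in 198 and 142. This was not particular to the separated genes. Over all genes tested, the median absolute log2 difference from the 0.1 mM mean was 0.1 in a, 0.303 in b and 0.279 in c. The median log2 difference of the higher genes from the 0.1 mM mean was 0.18 in a, 0.43 in b and 0.41 in c, and that of the lower genes -0.14, -0.43 and -0.40. The higher genes held 24.5% to 25% of feature reads in the 0.1 mM libraries, 27.1% in a, 30.5% in b and 30.3% in c. The lower genes held 12.9% to 13.5% at 0.1 mM, 11.5% in a, 9.52% in b and 9.59% in c. Without library a the number of separated genes was 7665, of which 3705 lay higher and 3960 lower.

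The separated genes were not spread evenly over abundance. Among the 3808 genes of middle abundance, between 7.41 and 41.5 CPM, 466 lay higher and 823 lower, or 12.2% and 21.6%. With upper-quartile scaling these became 522 and 751, so that lower genes remained the more numerous. Among the 3809 most abundant genes 629 lay higher and 637 lower, a near balance that upper-quartile scaling turned to 705 and 586. Among the 3809 least abundant genes 469 lay higher and 389 lower. Among all genes tested, separated or not, fitted differences of at least 2-fold were found mostly in the least abundant tertile. There 67 genes were higher and 75 lower, against 12 and 10 in the middle tertile and 5 and 1 in the most abundant. These counts carry no test, and the fit excluded such differences less often for rare transcripts. A 2-fold difference lay outside the interval of 63.4% of genes in the least abundant tertile, 90.7% in the middle and 95.9% in the most abundant. No transcript with more than a trace of reads was switched on or off between the doses in all libraries. With 0 reads in all 3 libraries of 0.1 mM and at least 1 read in each of a, b and c there were 10 features, none with more than 5 reads in a library. As many features, 10, showed the opposite pattern, again with at most 5 reads.

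The genes called by both the likelihood ratio test and DESeq2 numbered 318, of which 211 were higher and 107 lower at 0.25 mM. In 316 of them the libraries of the doses did not overlap, and 317 were also called by the quasi-likelihood test without library a. Over all genes tested, 13.7% lay higher and 16.2% lower without overlap. Without library a, 20.6% of all genes were called higher and 25.2% lower. The 318 genes were chosen by tests of these same libraries, so both counts largely follow from the choice and are a description only. The median fitted difference was 1.53-fold for the higher and 1.55-fold for the lower genes, and 21 and 15 reached 2-fold. Here too library a stood nearer to the low dose. The median log2 difference from the 0.1 mM mean was 0.30 in a, 0.73 in b and 0.72 in c for the higher genes, and -0.38, -0.78 and -0.76 for the lower ones.

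The 4 genes with the smallest p in the 6-library test, a pair in each direction, had library a closer to b and c. They were taken among genes that averaged 1 CPM or more, with CPM scaled by TMM, and whose libraries did not overlap between doses. A small p favours genes whose libraries lie close together within a dose, so the place of library a in these genes is partly set by the choice. GB53978-RA, the gene with the smallest p, stood at 3.26, 2.82 and 2.46 CPM in 0.1 mM replicates 1, 2 and 3 and at 6.21, 6.24 and 7.12 CPM in libraries a, b and c. All 3 high-dose libraries, a included, were at about the same level, from 257, 252 and 271 reads against 102 to 123 reads at 0.1 mM. The log2 difference was 1.20 ± 0.147 (± SE; edgeR, unadjusted p = 7.42e-05, adjusted p = 0.171), or 2.29-fold, with a 95% interval of 0.85 to 1.54. Larvae without quercetin had 1.8 ± 0.431 CPM (SD, n = 3).

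GB47506-RA stood at 43, 45.8 and 39 CPM at 0.1 mM and at 68.5 CPM in library a, 92.1 in b and 75.2 in c. The groups did not overlap, and a was the lowest of the high-dose libraries. The log2 difference was 0.88 ± 0.122 (edgeR, unadjusted p = 1.58e-04, adjusted p = 0.171), or 1.85-fold. The control level was 32.4 ± 2.19 CPM (SD, n = 3).

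GB50678-RA stood at 32.4, 35.9 and 33.9 CPM at 0.1 mM and at 22.3 CPM in library a, 22.4 in b and 20 in c. Libraries a and b were nearly equal and all 3 were below the low dose. The log2 difference was -0.66 ± 0.0848 (edgeR, unadjusted p = 9.87e-05, adjusted p = 0.171), and the control level was 45.7 ± 4.8 CPM (SD, n = 3), above both doses.

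GB50015-RA had the tightest replicates of the 4, with 59.9, 60.6 and 59.6 CPM at 0.1 mM and 44.1, 43.6 and 44.6 CPM in a, b and c. Its log2 difference was -0.45 ± 0.0582 (edgeR, unadjusted p = 1.10e-04, adjusted p = 0.171). The control libraries, at 46.5, 56.8 and 51.6 CPM, lay between the doses and spread more widely than either.

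Without library a, GB53978-RA, GB47506-RA, GB50678-RA and GB50015-RA each passed the quasi-likelihood test, with adjusted p = 0.0012, 7.81e-04, 9.98e-04 and 7.46e-04 in edgeR. Their log2 differences were then 1.23, 0.97, -0.68 and -0.45, within 0.1 of those with library a. The 4 were also called by DESeq2, by the likelihood ratio test and with quality weights, and by none of the other 12 alternatives run for them. Without library a, 20.6% of all genes tested were called higher and 25.2% lower. The 4 genes had the smallest p in the same counts, so their calls by tests that called many genes largely follow from the choice.

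**Figure D4:**
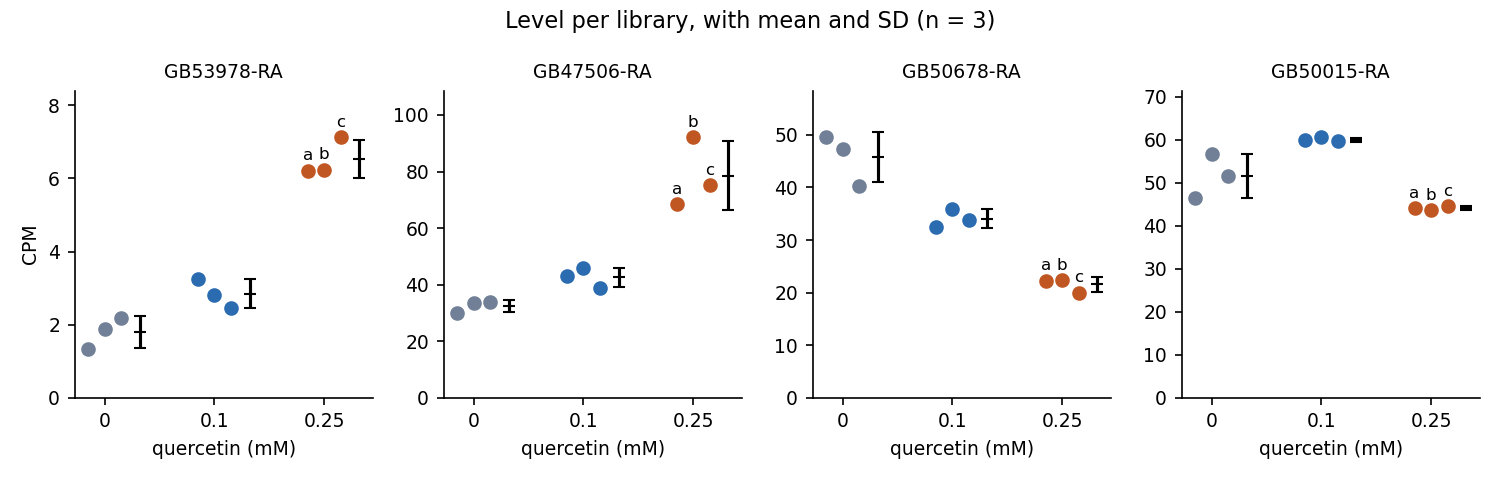
Level in CPM per library of the 4 genes with the smallest p, in control larvae and at 0.1 and 0.25 mM quercetin, with mean and SD of 3 libraries as bars beside the points and the high-dose libraries marked a, b and c. Libraries a, b and c lie close together for GB53978-RA (6.21 to 7.12 CPM), GB50678-RA (20 to 22.4) and GB50015-RA (43.6 to 44.6). For GB47506-RA, library a is at 68.5 CPM, against 92.1 in b and 75.2 in c and 39 to 45.8 at 0.1 mM. The place of library a is partly set by the choice of genes with a small p.

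Among the 20 most abundant features, which are described by rank only, the 3 libraries of 0.25 mM lay above those of 0.1 mM in 8, below in 2 and overlapped in 10. Over all genes tested, 13.7% lay above and 16.2% below without overlap. The fitted log2 differences of the 20 features ran from -0.28 to 0.73. The first of them, a transcript that alone took 8.56%, 8.33% and 7.92% of feature reads at 0.1 mM, took 9.26% in library a, 9.9% in b and 10.2% in c. Its log2 difference was 0.31 ± 0.114 (edgeR, unadjusted p = 0.0286, adjusted p = 0.171). The features of ranks 20, 8, 2 and 16 were singled out after their values were seen. That of rank 20 stood at 2315, 2556 and 2337 CPM at 0.1 mM and at 2378 CPM in library a, but at 4956 in b and 4593 in c. The feature of rank 8 stood at 6605, 6751 and 6645 CPM at 0.1 mM, at 6426 in a, and at 4901 and 5100 in b and c.

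Other abundant features varied as much within the low dose as between doses. The feature of rank 2 stood at 40078, 31054 and 21349 CPM in 0.1 mM replicates 1, 2 and 3 and at 45796, 39599 and 47872 CPM in a, b and c. That of rank 16 stood at 4747, 3519 and 2311 CPM at 0.1 mM and at 5480 CPM in a, 2753 in b and 3488 in c. In the feature of rank 16 library a was the highest of the 6 libraries, while b and c lay within the range of the low dose. The replicate of 0.1 mM that was lowest in these features, replicate 3, was also the one farthest from library a by share of reads. These features are part of that share, so this partly follows from their levels. By the median absolute log2 difference, library a was farthest from replicate 1, at 0.125 against 0.117 for replicate 3.

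**Figure D5:**
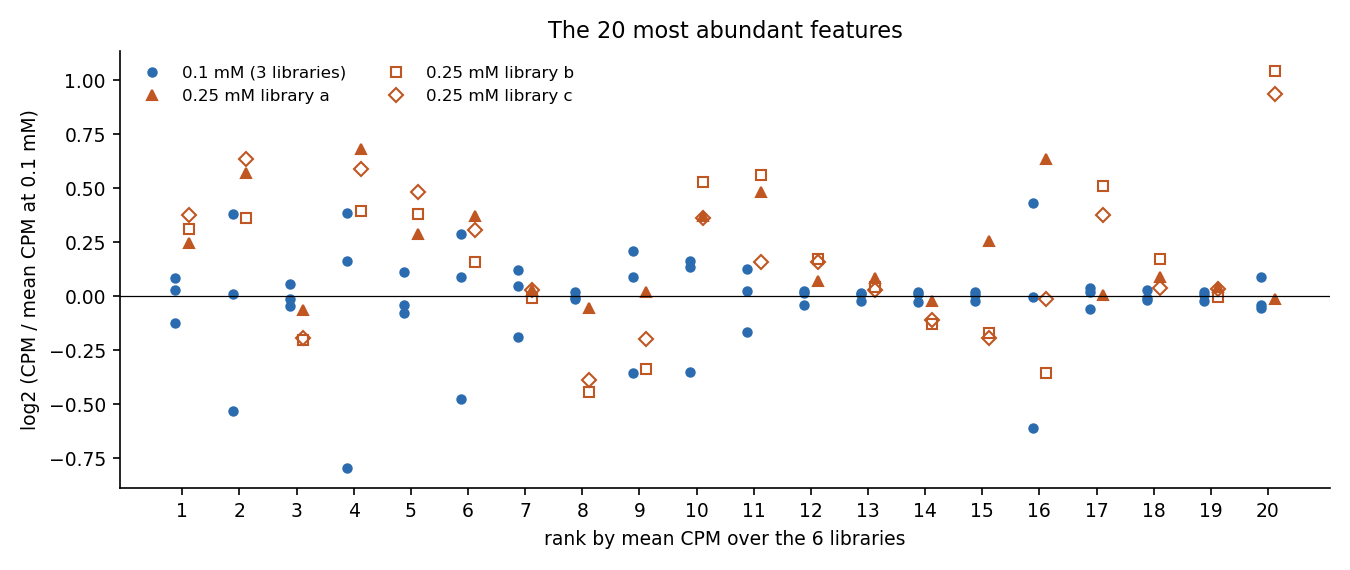
Level of each of the 20 most abundant features in the 6 libraries, as log2 of CPM over the mean of the 0.1 mM libraries, by rank of mean level. Library a lies with b and c in the first feature (95876, 100271 and 104927 CPM) and with the 0.1 mM libraries in the last.

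Shares of reads that the counting set aside moved with the split of the high-dose libraries. Reads on no feature were 13.2% to 13.7% at 0.1 mM, 12.9% in library a, 12.2% in b and 12.1% in c. Ambiguous reads were 3.44% to 3.51% at 0.1 mM, 3.36% in a and 3.04% and 3.03% in b and c, and unaligned reads were 17.2% to 17.3% at 0.1 mM, 17.3% in a and 18% and 18.4% in b and c. In each of these measures the doses did not overlap and library a was the one nearest to the low dose. The exact two-sided permutation test gave p = 0.1 for each, the smallest that 3 against 3 libraries allow, and 0.117 after adjustment over the 7 shares and counts compared. Their part in the gene differences was not tested.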

How the data were processed

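Libraries from 9 larval samples were prepared with Illumina's TruSeq RNA-seq kit, per the labels' protocols. The file that the authors deposited holds raw counts of reads for each feature. The submitters' processing notes list CASAVA 1.8, HTSeq and edgeR with no role. The aligner, build, annotation and strand setting were not given in the sources used here. Coordinates are therefore not printed, and genes that overlap on the same or opposite strands may share reads. All columns were assigned by heading. The 5 bookkeeping lines (no feature, ambiguous, low quality, unaligned, non-unique) stayed out of library sizes and tests.

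The main fit held only the 6 quercetin libraries, with edgeR 4.0.16 in R 4.3.3 (filterByExpr, TMM, estimateDisp, glmQLFit, glmQLFTest), which left 11426 of 15314 features. A fit with all 9 libraries was run as an alternative. Of the 3888 removed, 1468 had 0 reads in the 6 libraries. Adjustment was by Benjamini-Hochberg over the 11426 genes, and standard errors and 95% intervals came from the F statistic. Log2 levels of single libraries used a prior count of 2. Control levels used TMM factors from all 9 libraries, rescaled to the level of the factors of the 6 quercetin libraries. Alternatives used DESeq2 1.42.0 and limma 3.58.1. The replications were independent per the labels, which name no colonies, and p-values thus reflect only the spread among these samples, which may be partly technical. Genes were named by a fixed rule, at most 2 per direction because 0 identifiers matched the RefSeq gene table for assembly Amel_HAv3.1, which has 12398 genes. For the same reason none of the gene lists and cell type markers that had been written as name patterns could be evaluated. The comparison, lists and tests were chosen with earlier results of these data known.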

Additional observations from a re-analysis of the deposited data

How the results depend on the processing

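The number of genes called between the doses was 0 under RLE and upper-quartile factors, limma-voom, robust fitting, no filter (13846 genes), a strict filter, 5 CPM or more in 3 libraries (8201 genes), a threshold of 0.1 and a fit with all 9 libraries, where the smallest adjusted p was 0.0772. It was 649 with DESeq2 (399 higher, 250 lower), 352 with the edgeR likelihood ratio test (231 and 121) and 5992 with quality weights in limma-voom (2790 and 3202). With 1 library left out it ran from 0 to 5231, with 0 to 2352 higher and 0 to 2879 lower, and only the omission of library a gave any call. The count of genes with an unadjusted p under 0.05 ran from 1097 to 6155 with 1 library left out, and from 2446 to 3921 under other scalings and filters and with all 9 libraries. It was 3180 with DESeq2, 3194 with limma-voom and 6722 with quality weights. The count of genes whose interval excludes a 2-fold difference ran from 8808 to 9588 with 1 library left out. Genes with non-overlapping libraries numbered 3383 to 3419 under other scalings and 3796 to 7665 with 1 library left out, the highest without library a, where fewer libraries also make separation easier. Why the tools differed was not tested. Under the strict filter all distances between libraries were smaller, at 0.086 within 0.1 mM, 0.0929 for library a, 0.279 for b and 0.255 for c to 0.1 mM and 0.079 between b and c. The named genes kept their direction in all 16 alternatives run for each. They were chosen for non-overlapping doses in the same libraries, so this largely follows from the choice. The removal of the 20 most abundant features and the distances under another filter or scaling were chosen after the data were seen. No paired analysis was possible because the 3 columns of 0.25 mM carry the same number.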
